A study of Mus musculus with 6 samples.

Results

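Atf4, Atf5, Atf3, Ddit3, Cebpb, Cebpg, Nupr1, Trib3, Chac1 and Fam129a encode transcription regulators of the integrated stress response, modulators of them and effectors linked to them. All 10 were found by symbol in the expression tables of embryonic mouse hearts, among 23284 listed genes, and all 10 were among the 10807 genes tested. They were selected on their higher values in the Tfam KO libraries of these same tables. Their difference between genotypes is therefore given as a description, with no test.

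Hearts of C57BL/6 embryos were taken at E13.5, in mid-gestation, and each library was made from polyadenylated RNA of a pool of 5 hearts. The 3 mutant libraries came from Tfam fl/fl; Nkx2.5 IRES-Cre/+ embryos and are called Tfam KO. The 3 Control libraries came from Tfam fl/+; Nkx2.5 IRES-Cre/+ embryos, so both groups carried Cre at the Nkx2.5 locus and Control embryos also carried a floxed Tfam allele. Tfam encodes the factor that packages mitochondrial DNA and starts its transcription, and Cre expressed from the Nkx2.5 locus acts in the Nkx2.5 lineage of the heart, so cells of other lineages in the mutant pools can keep an intact Tfam gene.

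As background, kinases that sense several kinds of stress phosphorylate the initiation factor eIF2. Bulk translation then slows, while the messenger RNA of ATF4, a basic leucine zipper (bZIP) activator, is translated more. ATF4 acts with C/EBP partners at C/EBP-ATF response elements near genes of amino acid supply and near further regulators, among them the gene of CHOP (Ddit3), and in heart and muscle this response is known to accompany loss of mitochondrial function.

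Promoter windows of all 10 genes were found in RefSeq on GRCm38.p6, 250 bases before to 50 bases after an annotated start, giving 11 windows. The stretches printed here are those in which TGATGCAA or the AP-1 site TGANTCA stood before the start of a gene described below, since ATF4, its C/EBP partners and the AP-1-related ATF3 are encoded by these genes. CCAAT boxes were also found before the starts of Atf4, Atf5, Cebpg, Chac1 and Ddit3 and are not marked or printed. Capitals mark the match, the gene's own strand is read 5′ to 3′, and in the first 3 stretches the match is the reverse complement of the searched TGATGCAA. The Atf3 stretch is chr1:191183411-191183468 (minus strand), that of Chac1 is chr2:119351024-119351081 (plus strand), that of Nupr1 is chr7:126625548-126625605 (minus strand) and that of Ddit3 is chr10:127290543-127290582 (plus strand).
Atf3: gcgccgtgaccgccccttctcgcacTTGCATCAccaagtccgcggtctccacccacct
Chac1: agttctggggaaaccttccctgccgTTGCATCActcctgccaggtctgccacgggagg
Nupr1: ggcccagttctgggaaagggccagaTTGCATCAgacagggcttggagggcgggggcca
Ddit3: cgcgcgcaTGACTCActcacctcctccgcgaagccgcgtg

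On both strands, TGATGCAA stood in windows of 3 of the 10 genes, 110 bases before the start of Atf3, 110 before that of Nupr1 and 193 before that of Chac1, and in 0.895% of the 32851 windows in the table. The looser TGATGNAA, which contains every TGATGCAA, added Trib3, where it lay 14 bases after the start, and was found in 3.97% of all windows. The AP-1 site TGANTCA stood in the Ddit3 window alone, 242 bases before the start, against 7.81% of all windows. The CCAAT box was present in windows of 6 of the 10 genes and in 37.4% of all windows. TGACGTCA, the cAMP response element, was in 0 of the 11 windows, against 1.79% of all windows. The ER stress element, searched only as exact CCAAT and CCACG with 9 bases between, was in 0 of the 11, against 0.119% of all. Variants of that element were not searched, so its absence here applies to the exact letters. A match describes letters and not a bound site, and elements outside these windows were not searched.

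The 6 libraries held 12370092 to 18078620 reads, as recovered from the deposited values. Rn45s, the ribosomal RNA precursor, took 14.95% to 31.2% of the reads in the Tfam KO libraries and 27.8% to 32.5% in the Control libraries, and the median of all tested genes was 0.28 higher in Tfam KO on the log2(FPKM + 1) scale. Each value is therefore given both as deposited and after division by median-of-ratios size factors (0.812 to 1.33), which brought that median to 0.0024. With limma and an adjusted p under 0.05, 671 genes were higher and 125 lower on the deposited scale (84.3% of calls higher), while with size factors the calls were 215 higher and 281 lower (43.3% higher). Genes past the threshold on both scales numbered 215 higher and 103 lower. Higher calls as deposited were 2273 without Tfam KO 2 and 234 to 396 without any other single library, and lower calls were 52 without Control 1 and 55 without Control 3. With size factors, 133 higher and 126 lower calls were made without Control 3, and lower calls were 153 without Control 1 and 158 without Tfam KO 3. Of 18 reference genes, 2 passed the threshold on the deposited scale, both higher, and 0 with size factors, where 3 had an unadjusted p under 0.05 and 0 passed with voom; their median differences were 0.38 and 0.06. FPKM of Tfam, the targeted gene, was 3.97, 4.77 and 6.22 in Tfam KO and 4.64, 5.55 and 6.62 in Control, so the groups overlapped as deposited. With size factors it was 3.41, 5.17 and 4.69 against 5.71, 6.43 and 6.60, so every Tfam KO library lay below every Control library. The difference was -0.15 as deposited and -0.43 with size factors, short of the threshold on both scales (limma adjusted p = 0.651 and 0.14, unadjusted 0.513 and 0.0149), and -0.52 with voom (adjusted p = 0.0782). These values count the whole gene, including exons outside a deleted part, so they are a partial check of the labels. Cardiomyocyte markers summed to 8980 to 11140 FPKM in Tfam KO and 9665 to 11140 FPKM in Control, and 2 of 9, Nkx2-5 and Ttn, were lower with size factors alone, as were 2 of 3 smooth muscle markers, Cnn1 and Acta2. Higher as deposited alone were 2 of 7 fibroblast, 1 of 7 endothelial and 1 of 5 macrophage markers. Erythroid markers varied widely between pools, at 2471 to 11413 FPKM summed in Tfam KO and 4542 to 8749 FPKM in Control. Hbb-y was 4991, 2395 and 11313 FPKM in Tfam KO 1, 2 and 3, and 0 of 5 tested erythroid markers passed the threshold on either scale. Skeletal muscle markers summed to at most 0.668 FPKM and lung and foregut markers to at most 0.871 FPKM in any library, with Myf5, Myf6, Sftpc and Foxa2 listed at 0, while liver markers summed to 0.248 to 2.58 FPKM in Tfam KO and 2.29 to 7.45 FPKM in Control. The part of these differences in the results below was not tested.

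All 10 genes were higher in Tfam KO hearts, and the lowest Tfam KO library lay above the highest Control library for each of them on both scales. With 1 FPKM added, their differences ran from 1.03 for Atf3 to 3.58 for Nupr1 as deposited, and from 0.75 for Atf3 to 3.33 for Trib3 and Nupr1 with size factors. In the fit across all genes the 10 were past the threshold as deposited, where 6.21% of all tested genes were called higher and 1.16% lower, and with size factors, where 1.99% were called higher and 2.60% lower. On both scales together the shares were 1.99% higher and 0.953% lower. Every Tfam KO library was above every Control library for 25.6% of tested genes as deposited and 11.8% with size factors. Since the 10 genes were chosen by this contrast, nothing is read from their count. Only Chac1 had a Control mean below the filter of 1 FPKM and passed through its Tfam KO level.

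**Figure D1:**
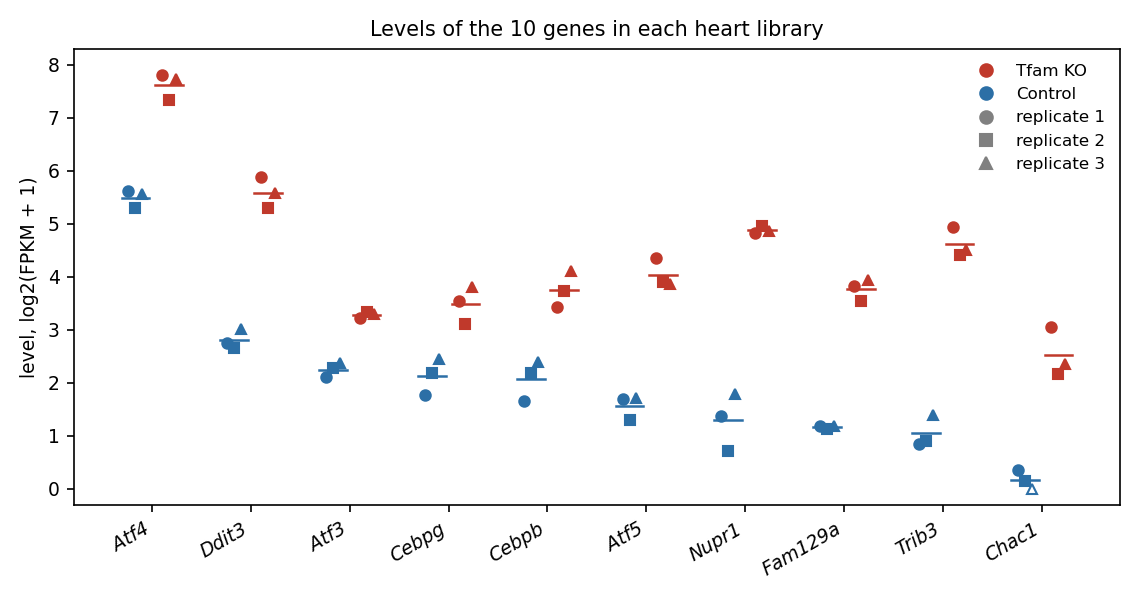
Level of each of the 10 genes, as log2(FPKM + 1) on the deposited scale (vertical axis), in the 3 Tfam KO libraries (red) and 3 Control libraries (blue); marker shapes give the replicate, horizontal lines are group means, the open symbol is a library listed at 0, and genes are ordered by their Control level. The red symbols lie above the blue ones for every gene, by the smallest step for Atf3 and the largest for Nupr1 and Trib3.

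Atf4, the central activator, was already the highest of the 10 in Control hearts. Its FPKM was 223, 159.8 and 211 in the Tfam KO libraries and 48.1, 38.3 and 46.1 in the Control libraries. The lowest mutant pool was 3.32 times the highest Control pool, and 2.69 times with size factors. The difference was 2.13 (SE 0.23) as deposited and 1.795 (SE 0.14) with size factors. Here and for every later gene, the deposited SE comes from a variance pooled over genes of like level and not from the gene's own spread. Within each library, Atf4 ranked at the 93.9th to 95.6th percentile of tested genes in Control and at the 98.6th to 98.8th in Tfam KO. In such bulk samples, a change in the share of cells of a type and a change in RNA per cell cannot be told apart.

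Atf5, a bZIP factor related to ATF4 and linked to the mitochondrial unfolded protein response, had FPKM of 19.4, 14.0 and 13.6 in Tfam KO and 2.25, 1.47 and 2.28 in Control. The 3 mutant pools lay well above the 3 Control pools, with Tfam KO 1 the highest. The difference was 2.47 (SE 0.23) as deposited and 2.20 (SE 0.19) with size factors, and its rank moved from the 12.4th to 25.1st percentile in Control to the 70.0th to 81.9th. Exons of Atf5 share 82 bases with Nup62 and with Il4i1 on the opposite strand in the GENCODE annotation of GRCm38. The strand setting of the counting is not given in the sources used here, so reads there cannot be assigned with certainty. Nup62 itself differed by 0.41 as deposited and 0.08 with size factors.

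Atf3, a bZIP factor induced by many stresses and often a repressor, showed the smallest difference of the 10. Its FPKM was 8.31, 9.09 and 8.78 in Tfam KO and 3.31, 3.85 and 4.17 in Control. The mutant pools were tightly grouped as deposited, with a coefficient of variation of 4.49%, but spread to 22.1% with size factors, where Tfam KO 2 was the highest at 9.86 and Tfam KO 3 the lowest at 6.62. The difference was 1.03 (SE 0.23) as deposited and 0.75 (SE 0.15) with size factors. Leaving out 1 library at a time gave differences of 0.96 to 1.09 as deposited and 0.60 (without Tfam KO 2) to 0.84 with size factors.

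Ddit3 encodes CHOP, a C/EBP-family factor that dimerizes with other C/EBP proteins. It had FPKM of 57.8, 38.2 and 47.0 in Tfam KO and 5.77, 5.29 and 7.05 in Control. Control libraries placed it near the middle of tested genes, at the 53.6th to 58.5th percentile, and Tfam KO libraries at the 92.2nd to 95.01st. The difference was 2.78 (SE 0.23) as deposited and 2.47 (SE 0.14) with size factors. Exons of Ddit3 share 68 bases with Mars on the opposite strand. Mars, which encodes methionyl-tRNA synthetase, itself rose by 1.30 as deposited and 0.99 with size factors (limma adjusted p = 1.43e-06 and 0.000887), and its reads in the shared bases cannot be told apart from those of Ddit3.

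The C/EBP genes Cebpb and Cebpg were moderately higher. Cebpb encodes a C/EBP activator and ATF4 partner, and its FPKM was 9.75, 12.3 and 16.3 in Tfam KO and 2.15, 3.55 and 4.27 in Control. In both genotypes replicate 1 was the lowest, and the mutant pools stayed above all Control pools by a factor of at least 2.29, or 1.97 with size factors. The difference was 1.68 (SE 0.23) and 1.40 (SE 0.19) on the deposited and size factor scales. Cebpg encodes a short C/EBP protein that pairs with ATF4, and its FPKM was 10.7, 7.61 and 12.9 in Tfam KO and 2.40, 3.58 and 4.48 in Control. The gap between the groups was narrow as deposited, where the lowest mutant pool was 1.70 times the highest Control pool, and 1.85 times with size factors. The difference of Cebpg was 1.35 (SE 0.23) as deposited and 1.06 (SE 0.15) with size factors. Cebpg shares 73 exon bases with Gm44836 on the same strand and 4 with Gm45095 on the opposite strand. Cebpb shares 312 with Tmem189 on the opposite strand, and Tmem189 differed by 0.26 as deposited and -0.02 with size factors.

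Nupr1 and Trib3 went from low levels to levels above most tested genes. Nupr1 encodes a small chromatin-associated protein induced by stress. Its FPKM was 27.3, 29.96 and 28.3 in Tfam KO and 1.61, 0.646 and 2.47 in Control, resting on 214 to 296 reads and on 5 to 28 reads per library. As deposited the mutant pools were close together, with a coefficient of variation of 4.79%, but with size factors they spread from 21.3 to 32.5 FPKM (23.1%). Control 2 was the lowest Control pool on both scales. The difference was 3.58 (SE 0.23) as deposited and 3.33 (SE 0.24) with size factors. Trib3 encodes a pseudokinase that binds and restrains ATF4, and its FPKM was 29.5, 20.3 and 21.8 in Tfam KO and 0.805, 0.867 and 1.62 in Control. Control pools placed it at the 2.14th to 10.5th percentile and mutant pools at the 81.6th to 89.0th. The difference was 3.57 (SE 0.23) as deposited and 3.33 (SE 0.17) with size factors.

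Chac1 encodes an enzyme that breaks down glutathione and is a known target of ATF4 and CHOP. Its FPKM was 7.32, 3.51 and 4.12 in Tfam KO and 0.274, 0.103 and 0 in Control, from 144, 76 and 108 reads against 6, 2 and 0 reads. Tfam KO 1 was the highest, and Control 3 was the library listed at 0. The read rate, as a share of all reads over the pooled libraries, was 42.3 times higher in Tfam KO, with an exact 95% interval of 21.2 to 98.7 that covers counting error only and is no test between genotypes. The difference on the log2(FPKM + 1) scale, 2.36 (SE 0.21) as deposited and 2.19 (SE 0.21) with size factors, understates this ratio, since 1 FPKM was added to values near 0. With a pseudocount of 0.1 in place of 1 it was 4.62.

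Fam129a encodes Niban, a cytoplasmic protein induced by endoplasmic reticulum stress. Its FPKM was 13.3, 10.7 and 14.3 in Tfam KO and 1.28, 1.19 and 1.29 in Control. Of the 10 genes it varied least within the mutant group once size factors were applied, with a coefficient of variation of 3.52%, and the groups were far apart. The difference was 2.60 (SE 0.23) as deposited and 2.35 (SE 0.12) with size factors.

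In Control hearts the mean FPKM, a level per transcript length, fell in the order Atf4, Ddit3, Atf3, Cebpg, Cebpb, Atf5, Nupr1, Fam129a, Trib3 and Chac1. Atf4 was above Ddit3 in every Control library with no overlap of their ranges, as were Ddit3 above Atf3 and Trib3 above Chac1. The ranges of the other 6 neighbouring pairs overlapped over the 3 libraries, although Cebpg was above Cebpb within each of the 3. Nupr1 and Trib3, at 1.57 ± 0.915 and 1.10 ± 0.453 FPKM in Control (SD, n = 3), stood at 28.5 ± 1.37 and 23.9 ± 4.97 FPKM in Tfam KO (SD, n = 3), above Atf5 at 15.7 ± 3.20, Cebpb at 12.8 ± 3.31 and Atf3 at 8.73 ± 0.392.

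**Figure D2:**
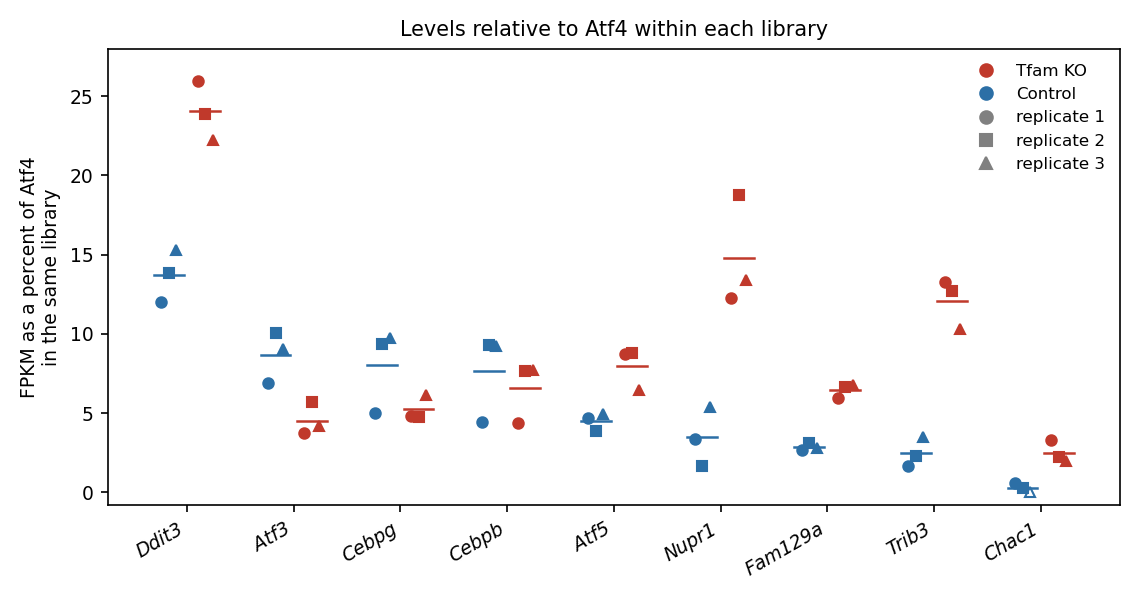
FPKM of each gene as a percent of Atf4 FPKM in the same library (vertical axis), for the 3 Tfam KO (red) and 3 Control (blue) libraries; marker shapes give the replicate, lines are group means and the open symbol is a library listed at 0. Ddit3, Nupr1 and Trib3 take a larger percent in every Tfam KO library, Atf3 a smaller one, and Cebpb and Cebpg overlap.

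A ratio to Atf4 within the same library does not depend on the library total, and it separated the genes into 3 patterns. Ddit3 was 12.0% to 15.3% of Atf4 in Control and 22.3% to 26.0% in Tfam KO, Nupr1 1.69% to 5.37% and 12.2% to 18.8%, and Trib3 1.67% to 3.51% and 10.3% to 13.3%. Atf5 (3.84% to 4.96% against 6.46% to 8.76%), Fam129a (2.65% to 3.11% against 5.96% to 6.78%) and Chac1 (0% to 0.570% against 1.95% to 3.29%) were also a larger percent of Atf4 in each mutant pool. Atf3 went the other way, from 6.87% to 10.04% in Control to 3.73% to 5.69% in Tfam KO. Cebpb at 4.46% to 9.27% and 4.38% to 7.72%, and Cebpg at 4.98% to 9.73% and 4.76% to 6.12%, overlapped between genotypes. These ratios show unequal differences among the 10 genes and were not tested.

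Within the Tfam KO group the pools did not share an order. On the deposited scale Tfam KO 1 was the highest for Atf4, Atf5, Ddit3, Trib3 and Chac1, Tfam KO 3 for Cebpb, Cebpg and Fam129a, and Tfam KO 2 for Atf3 and Nupr1. With size factors Tfam KO 3 was the lowest of the 3 for Atf4, Atf5, Atf3, Ddit3, Nupr1, Trib3, Chac1 and Fam129a. Tfam KO 3 also had the lowest Rn45s share, 14.95%, and the largest size factor, 1.33, and the part of these in that order was not tested.

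The 5 other genes whose pattern over the 6 libraries was nearest that of Atf4, by the root mean square difference of centred log2(FPKM + 1) values with size factors, were Sesn2 (0.11), Pck2 (0.12), Sars (0.12), B4galnt2 (0.13) and Stc2 (0.16). Sesn2 encodes a stress-induced regulator of growth signalling, Pck2 the mitochondrial form of phosphoenolpyruvate carboxykinase, Sars seryl-tRNA synthetase, B4galnt2 a glycosyltransferase and Stc2 a secreted glycoprotein. Their FPKM in Tfam KO against Control were 8.82 ± 1.13 and 1.43 ± 0.451 for Sesn2, 22.8 ± 5.39 and 4.86 ± 0.790 for Pck2, 71.3 ± 12.7 and 16.7 ± 1.60 for Sars, 3.48 ± 0.420 and 0.152 ± 0.0275 for B4galnt2, and 10.5 ± 2.18 and 2.06 ± 0.381 for Stc2 (SD, n = 3). Among the 10 genes themselves Atf5 was the nearest to Atf4, at 0.25, and Trib3 and Nupr1 the farthest, at 0.80 and 0.83, by a measure that includes the size of the difference on the log2(FPKM + 1) scale. The measure takes in the difference between genotypes on which Atf4 was selected, so nearness to Atf4 is a description and no independent support. B4galnt2 had a Control mean under the filter and entered the tested genes through its Tfam KO level. With its Control level near 0, the added 1 FPKM makes its difference smaller: with voom on reads it was 4.17, against 1.82 for Atf4.

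Of 6 tested paralogs or near relatives of these genes, 1 rose past the threshold on both scales, beside 1.99% of all tested genes. Jdp2, a bZIP repressor close to Atf3, had FPKM of 5.73, 4.19 and 5.97 in Tfam KO and 2.01, 1.97 and 1.85 in Control, a difference of 1.09 as deposited and 0.83 with size factors (limma adjusted p = 6.75e-05 and 0.00486). Trib2, a pseudokinase like Trib3, had FPKM of 9.68, 10.8 and 11.5 in Tfam KO and 13.9, 15.9 and 17.7 in Control, with no overlap in the direction opposite to Trib3. Its difference was -0.53 as deposited, short of the threshold (limma adjusted p = 0.132), and -0.84 with size factors, past it (0.00680). The remaining 4 did not pass the threshold on either scale: Trib1 differed by 0.03 and -0.24, Chac2 by 0.22 and -0.01, Fam129b by 0.12 and -0.18, and Cebpd by -0.01 and -0.22, as deposited and with size factors. The median over the 6 was 0.07 as deposited and -0.20 with size factors, beside 0.28 and 0.0024 for all tested genes. Cebpa, at 0.347 ± 0.0548 FPKM in Tfam KO and 0.249 ± 0.0722 in Control (SD, n = 3), Cebpe and Fam129c were under the filter.

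**Figure D3:**
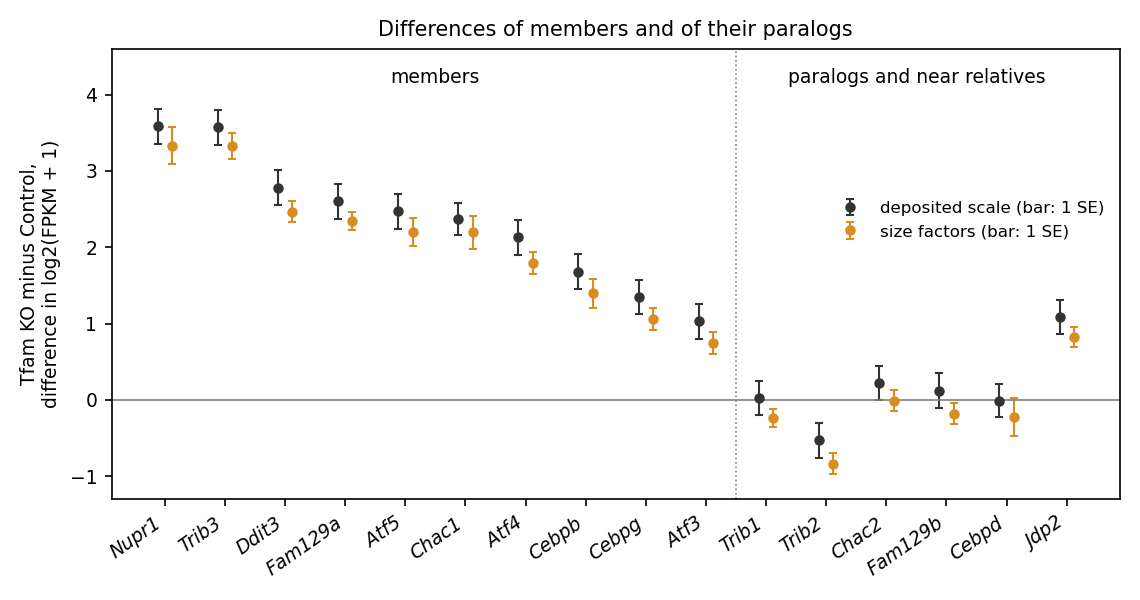
Difference of Tfam KO minus Control in log2(FPKM + 1) (vertical axis) for the 10 genes and for 6 tested paralogs or near relatives, as deposited (black) and with size factors (orange). Bars are 1 SE, which as deposited is pooled over genes of like level, and the horizontal line marks no difference. The 10 selected genes lie between 0.75 and 3.58, Jdp2 at 1.09 and 0.83, and the other 5 at or below 0.22.

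Of the genes that act upstream of ATF4, 16 were tested: eIF2 kinases, eIF2 and eIF2B subunits, eIF2 phosphatase regulators and mitochondrial relay genes. As higher, 2 passed the threshold on the deposited scale and 1 with size factors, beside 6.21% and 1.99% of all tested genes. Higher genes with an unadjusted p under 0.05 numbered 7 as deposited and 3 with size factors. Lower calls were 0 on either scale, where 0 had an unadjusted p under 0.05 in that direction and 0 were lower with voom. The 4 eIF2 kinases differed by 0.42 (Eif2ak1), 0.13 (Eif2ak2), 0.28 (Eif2ak3) and 0.13 (Eif2ak4) as deposited and by 0.10, -0.15, 0.03 and -0.11 with size factors, none past the limma threshold on either scale. Oma1, the mitochondrial protease that starts a relay to the kinase HRI, differed by 0.48 and 0.19, and 0610009O20Rik, the relay protein DELE1, by 0.41 and 0.10, also short of the threshold. Eif2b3, a subunit of the exchange factor eIF2B, rose from 1.90 ± 0.291 FPKM in Control to 3.99 ± 0.417 in Tfam KO (SD, n = 3), a difference of 0.79 as deposited and 0.54 with size factors (limma adjusted p = 0.0101 and 0.0341). That call was lost as deposited without Tfam KO 1 (0.75), Control 1 (0.73) or Control 2 (0.76), and with size factors without any library but Tfam KO 3 (0.50 to 0.56). Ppp1r15a, the stress-induced phosphatase subunit GADD34, was higher as deposited (0.84, adjusted p = 0.00846) but short of it with size factors (0.52, adjusted p = 0.0921). The median of the 16 genes was 0.41 as deposited and 0.10 with size factors, beside 0.28 and 0.0024 for all tested genes. The number higher as deposited was 8 without Tfam KO 2, 1 without Control 1, and 0 without Tfam KO 1 or Control 2.

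Other known targets of ATF4 were higher with few exceptions. Of 40 listed genes, 38 were tested, 35 were higher as deposited and 34 on both scales, with 0 lower, where 0 had an unadjusted p under 0.05 in that direction and 0 were lower with voom. Of all tested genes, 6.21% were higher as deposited and 1.99% on both scales. This list, like the others, was chosen with earlier results of these data known, so its counts and p-values are a description and no independent support. The median difference of the 38 genes was 1.73 as deposited and 1.42 with size factors, beside 0.28 and 0.0024 for all tested genes. The called genes include Slc7a3, Cth and Gdf15, whose Control means of 0.338, 0.232 and 0.352 FPKM were under the filter, so that they entered the test through their Tfam KO level and had to differ. Asns, asparagine synthetase, rose from 4.05 ± 0.392 to 86.2 ± 22.0 FPKM (SD, n = 3), a difference of 4.08 as deposited and 3.77 with size factors (adjusted p = 1.47e-06 with size factors), above that of each of the 10 selected genes on this scale. Slc7a3, a cationic amino acid transporter, rose by 3.52 and 3.31, with no p given because its Control mean was under the filter. Mthfd2, a mitochondrial folate enzyme, rose by 3.29 and 2.97, and Phgdh, the first enzyme of serine synthesis, by 2.67 and 2.36 (limma adjusted p with size factors = 3.50e-06 and 5.94e-05). The 4 tested genes not past the threshold on both scales were Ppp1r15a, Slc38a2 (0.64 and 0.31), Eif4ebp1 (0.57 and 0.24) and Ddit4 (0.05 and -0.22).

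Among bZIP genes outside the selected 10, 30 of 37 were tested. Calls as deposited were 5 higher and 0 lower, where 0 had an unadjusted p under 0.05 in that direction, and calls with size factors were 3 higher and 1 lower. Of all tested genes, 6.21% were called higher and 1.16% lower as deposited, and 1.99% and 2.60% with size factors. Atf6, a sensor of the unfolded protein response, rose from 4.48 ± 0.508 to 12.9 ± 1.61 FPKM (SD, n = 3), a difference of 1.34 and 1.05 (limma adjusted p = 4.30e-07 and 0.000628). Mafg, a small Maf partner of NRF2, rose by 0.85 and 0.55 (adjusted p = 0.00649 and 0.0299). The Mafg call was lost as deposited without Tfam KO 3 (0.71), Control 1 (0.83) or Control 2 (0.76), and with size factors without any library but Tfam KO 1 (0.48 to 0.60). Jdp2, given above, was the third gene past the threshold on both scales. The median of the 30 genes was 0.28 as deposited and 0.05 with size factors, close to 0.28 and 0.0024 for all tested genes. As deposited, 7 were higher without Tfam KO 2, 2 without Control 1 or Control 2, and 3 without Control 3 or Tfam KO 1. The 1 lower call with size factors was lost without any library but Tfam KO 3.

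The ATF6 and XBP1 arm of the unfolded protein response, which supplies chaperones of the endoplasmic reticulum, had a median difference near that of all genes. It was 0.31 as deposited and 0.01 with size factors, beside 0.28 and 0.0024 for all tested genes. Of 26 tested genes, 2 rose and 1 fell past the threshold on both scales, beside 1.99% and 0.953% of all tested genes. Herpud1, which acts in protein degradation from the endoplasmic reticulum, rose from 6.73 ± 0.743 to 21.3 ± 5.19 FPKM (difference 1.51 and 1.196, limma adjusted p = 7.88e-09 and 0.00147), and Atf6 was the other. Sdf2l1, an endoplasmic reticulum chaperone component, fell from 8.67 ± 1.22 to 3.86 ± 0.956 FPKM (SD, n = 3), a difference of -1.003 and -1.29 (adjusted p = 0.000521 and 0.000710). Without Tfam KO 2, 6 of these genes were higher as deposited.

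Of 8 tested CHOP targets, 3 passed as higher on the deposited scale and 1 with size factors. The list was not sorted by direction of regulation, and Ppp1r15a also stood among the upstream genes and the other ATF4 targets. Lower calls were 0 on each scale, where 0 as deposited and 1 with size factors had an unadjusted p under 0.05 in that direction and 0 were lower with voom. Wars, tryptophanyl-tRNA synthetase, also a known ATF4 target, was the gene past the threshold on both scales (1.05 and 0.73, limma adjusted p = 0.000302 and 0.0286). It lost that call with size factors without Tfam KO 1 (0.65), Tfam KO 2 (0.68), Control 2 (0.64) or Control 3 (0.69). Without Tfam KO 2 the number higher as deposited was 5, and without Tfam KO 1 or Control 2 it was 1. The median was 0.48 as deposited and 0.23 with size factors, beside 0.28 and 0.0024 for all tested genes, of which 6.21% and 1.99% were called higher. Car6 and Dpysl4 were under the filter.

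Immediate early genes, which many stimuli switch on and which include further bZIP factors, moved in both directions. Among 19 tested genes, the deposited scale called 4 higher and 1 lower, and size factors 2 higher and 3 lower. Beside these, the calls over all tested genes came to 6.21% in the higher direction and 1.16% in the lower on the deposited scale. Once size factors were applied, the same 2 shares came to 1.99% and 2.60%. Fos, an AP-1 subunit, rose from 1.93 ± 0.405 to 6.66 ± 2.33 FPKM (SD, n = 3; difference 1.35 and 1.10, limma adjusted p = 1.67e-07 and 0.0405), and Fosb, another, from 0.223 ± 0.145 to 1.89 ± 0.909 FPKM (1.19 and 1.08). Fosb entered the test only through its Tfam KO level, since its Control mean was under the filter. No p is therefore given for Fosb, although it is among the genes counted as higher. With size factors the Fos call was lost without Tfam KO 2 (0.78), Tfam KO 3 (1.13), Control 1 (1.03) or Control 3 (1.05), and the Fosb call without any library but Tfam KO 1 (0.85 to 1.16). Gadd45b, a stress and growth arrest gene, fell from 6.63 ± 1.43 to 3.27 ± 0.601 FPKM (SD, n = 3; -0.83 and -1.10, adjusted p = 0.00774 and 0.00667). Its call was lost as deposited without Control 1 (-0.74) or Control 3 (-0.75). With size factors the number lower was 1 without Control 1, Control 3 or Tfam KO 3. As deposited, 2 were lower without Tfam KO 2. The median of the 19 was 0.28 as deposited and -0.0020 with size factors, beside 0.28 and 0.0024 for all tested genes.

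**Figure D4:**
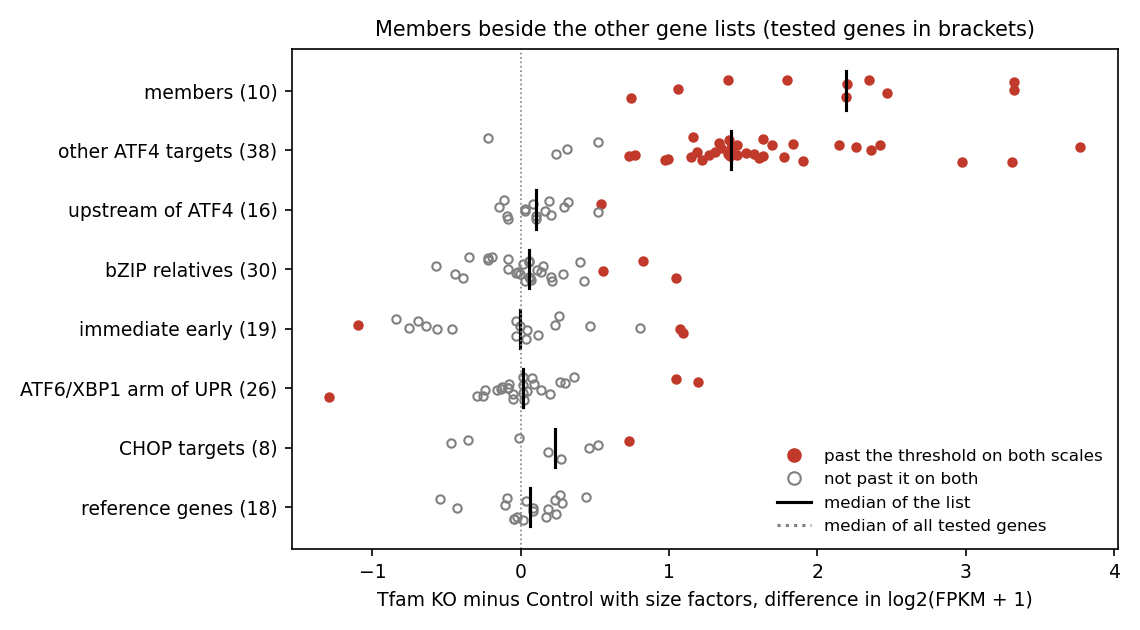
Difference of Tfam KO minus Control in log2(FPKM + 1) with size factors (horizontal axis) for every tested gene of each list (rows, number tested in brackets); filled red points passed the threshold on both scales, open points did not, black bars are list medians and the dotted line is the median of all tested genes. The 10 selected genes and the other ATF4 targets have medians of 2.20 and 1.42, and the other lists have medians of 0.23 or less.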

How the data were processed

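Poly(A) RNA of 6 pools of E13.5 mouse hearts was measured, 3 per genotype, grouped by the labels' genotype and title. The authors deposited 1 table per library of log2(FPKM + 1) per gene, FPKM being reads scaled by transcript length and library total; the log scale follows from the values. CASAVA 1.8.2, TopHat2 2.0.7, HTSeq 0.5.3 and the build mm9 are named, with no role or order, per the submitters' processing notes. The annotation, strand setting and FPKM computation are not given in the sources used here. The read total of Control 1 was the one given by most genes with 1 transcript length, 379 genes against 373 for the next best total. Totals of the other libraries followed from the commonest ratio of low values to Control 1. With these totals and each gene's length left free, whole reads were recovered for 17876 of 17876 genes above 0 (to within 0.02 reads).

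Genes whose mean over the 6 libraries reached 1 FPKM were fitted with limma 3.58.1 (R 4.3.3; empirical Bayes with trend, two-sided, Benjamini-Hochberg over 10807 genes, threshold 0.05) on log2(FPKM + 1), as deposited and with median-of-ratios size factors. Each group held 3 libraries, and the labels do not say whether pools shared litters. The deposited scale gave a residual SD of 0.27 and size factors 0.20. As deposited the prior degrees of freedom of the empirical Bayes step were infinite, and with size factors they were 6.14. Deposited SEs and limma p-values therefore use a variance pooled over genes of like level, in which a gene's own spread has no weight. On simulated data for this comparison, with 200 of 10807 genes changed, 50% of 2-fold and 99% of 4-fold changes were recovered as deposited (50 unchanged genes called), and 87% and 100% with size factors (13 called). Every simulated gene had the same dispersion, 0.02, and only genes with a mean of at least 20 reads were changed. Recovery for genes with fewer reads or a larger spread was therefore not measured.

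The 10 genes and all lists were chosen with earlier results of these data known. Text names the 10 genes, every tested paralog, up to 4 genes per list and direction past the threshold on both scales with the largest difference, and the 5 genes nearest Atf4; the eIF2 kinases, Oma1, 0610009O20Rik and the genes given as short of a threshold were named after their values were seen. Alternatives were another pseudocount, no filter, no variance trend, the replicate number as a block, limma-voom on recovered reads and leaving out each library; leaving out Rn45s reads and leaving out libraries with size factors were added after seeing the data. Promoters are RefSeq sequences on GRCm38.p6 and exon overlaps are from GENCODE vM21 on GRCm38, not the build of the files; protein sequences were not used here.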

Additional observations from a re-analysis of the deposited data

How the results depend on the processing

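The number called among the 10 selected genes follows from how they were chosen and supports nothing; it was 10 in 17 of 20 alternatives and 9 in the other 3, which left out 1 library with size factors. Of 200 recomputed differences of these genes, 200 were above 0 and 55 moved by more than 1 SD. Over all genes, 671 higher and 125 lower became 215 and 281 with size factors, 278 and 460 with voom, and 145 and 22 without the filter. Leaving out 1 library gave 234 (without Control 1) to 2273 (without Tfam KO 2) higher and 52 (without Control 1) to 112 lower as deposited. On the size factor scale it gave 161, 213 and 133 higher (without Control 1, 2 and 3) and 202, 149 and 195 higher (without Tfam KO 1, 2 and 3), with 153, 350 and 126, and 271, 201 and 158, lower. The causes were not tested. With the replicate block, 2083 were higher and 241 lower, and 278 and 421 with size factors as well. Whether replicate numbers pair the libraries is not settled by the values. Deviations of same-numbered libraries correlated at 0.36, 0.05 and 0.17 as deposited and at 0.36, 0.07 and 0.16 with size factors. Tfam KO 1 correlated best with Control 1, but Tfam KO 3 correlated best with Control 2 (0.25 on both scales).

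For the lists, size factors changed the counts to 1 CHOP target higher (voom 1), 3 bZIP relatives higher and 1 lower (voom 1 lower), 1 upstream gene higher (voom 1), 2 immediate early genes higher and 3 lower (voom 5 lower) and 1 paralog, Trib2, lower (voom 1). Without the filter, 2 bZIP relatives, 0 upstream genes, 0 immediate early genes in either direction and 0 lower genes of the ATF6 and XBP1 arm were called. The replicate block gave 6 higher genes of that arm, 8 bZIP relatives and 6 upstream genes higher, 3 immediate early genes lower and 1 paralog lower, and with size factors 3 bZIP relatives higher, 1 lower, 1 upstream gene, 2 immediate early genes higher, 5 lower and 1 paralog lower. Leaving out Rn45s reads gave 2 immediate early genes and 1 paralog lower. Over the libraries left out, on both scales, higher counts ran from 33 to 37 for other ATF4 targets, 0 to 8 upstream, 2 to 7 for bZIP relatives, 1 to 1 for paralogs, 0 to 4 for immediate early genes, 2 to 6 for the ATF6 and XBP1 arm, 0 to 5 for CHOP targets and 9 to 10 for the selected genes. Lower counts ran from 0 to 1 for bZIP relatives and paralogs, 0 to 4 for immediate early genes and 1 to 1 for the ATF6 and XBP1 arm. Among the low genes depth limits Chac1 most, with 8 reads in the 3 Control libraries.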
